A study of Mus musculus with 4 samples.

Results

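Scx and Tnmd mark the tendon lineage of the limb. Among single cells of E14.5 mouse hindlimbs, 489 barcodes carried at least 3 unique molecular identifiers (UMIs) of these genes together and were taken as tendon progenitors, of 3640 barcodes past the quality filter and 18955 deposited. They were selected on 11 genes. A barcode needed 3000 UMIs and at most 10% mitochondrial UMIs, at least as many UMIs of the fibrillar collagens Col1a1, Col1a2 and Col3a1 as of the cartilage genes Acan, Col9a1, Col9a2 and Col9a3, under 3 UMIs of Gdf5 (a joint ligand) and under 2 UMIs of Sp7 (an osteoblast factor). Of 1930 barcodes on the fibrillar side (fibrillar barcodes hereafter), 521 reached 3 UMIs of Scx and Tnmd, and 11 of these were left out by Gdf5 and 21 by Sp7. The other 1441 fibrillar barcodes served as the comparison.

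Tendon progenitors of the limb are mesenchymal cells that switch on Scx, a basic helix-loop-helix transcription factor. As they align into tendons between muscle and skeleton they gain Mkx, a homeobox factor that promotes collagen production, and then Tnmd, a transmembrane protein that marks maturing tenocytes. Their matrix is mainly type I collagen, bundled under the control of small leucine-rich proteoglycans such as fibromodulin and keratocan, and TGF-beta and FGF signals from neighbouring tissues regulate the lineage.

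The study asked how the limb reacts when its cartilage is arrested. All embryos were Gli1CreER/+; R26LSL-tdTom/+; TigreTRE-p21/+. The Pan-Cart-p21MOE embryos had an additional allele, Col2a1-rtTA, that drives the cell-cycle inhibitor p21 in Col2a1-expressing cartilage when doxycycline is given. This allele was absent from the controls. Pregnant females received 1 mg/ml doxycycline from E12.5 and 120 µg/g tamoxifen at E13.5, so that cells with Gli1 activity, a readout of hedgehog signalling, became labelled with tdTomato in both genotypes. Hindlimbs were dissociated at E14.5 and sorted into tdT+ cells (libraries S1 and S3) and tdT- cells (S2 and S4) in 2 collections, as the labels number them (S1 and S2 in collection 1, S3 and S4 in collection 2). Each library held cells of both genotypes, which were of opposite sex: male Pan-Cart-p21MOE and female control in collection 1, and the reverse in collection 2. Genotype was therefore read from Xist against 4 Y-linked genes in each barcode. The study's methods list 2 embryos for each pool except 1 for the female Pan-Cart-p21MOE pool, while its results describe pools of more than 1 embryo throughout. The 4 samples of a genotype are the tdT+ and tdT- cells of 2 such pools, so p-values rest on few embryos.

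The members numbered 113, 47, 145 and 184 in S1 to S4, with 4076063, 1384377, 4513147 and 5755949 UMIs. Their median depth of 32145, 26107, 27530 and 27704.5 UMIs exceeded that of the other fibrillar barcodes of the same library, at 22859, 10598, 18250 and 13620 UMIs. A barcode with more UMIs reaches 3 UMIs of Scx and Tnmd more easily, so depth is part of the selection. A genotype was assigned to 410 members, and 37 members with UMIs of both sexes were given none. Only 1 member barcode occurred in more than 1 library.

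The label fits the markers in part. By the selection, Scx stood at 149, 212, 237 and 273 CPM (a gene's UMIs over a common library total, scaled by TMM) in the members of S1 to S4, and Tnmd at 126, 135, 145 and 342 CPM. S4 was highest for both, and Tnmd in S4 stood clear of the other libraries. The median member had 6 UMIs of the pair, 4 of Scx and 2 of Tnmd, and the quartiles were 4 and 14. Both genes were detected in 284 members, Scx alone in 162 and Tnmd alone in 43. Members of exactly 3 UMIs numbered 109, and 168 barcodes stood just outside at 2 UMIs. For the members just inside, summed Scx was 73.2 ± 9.81 CPM and Tnmd 31.7 ± 11.3 CPM (SD, n = 4 libraries, without TMM scaling), against 72.1 ± 16.1 and 19.0 ± 11.1 CPM just outside. Thbs4 was 17.7 ± 19.5 CPM inside and 22.1 ± 20.0 CPM outside, and Kera 19.4 ± 12.2 and 7.19 ± 10.5 CPM. Mkx was 24.3 ± 17.2 and 14.7 ± 9.82 CPM. Scx and Tnmd are fixed here by the choice of 3 or 2 UMIs, and no test was made between these barcodes.

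The remaining markers were not part of the selection. Thbs4, a thrombospondin of the tendon matrix (chr13:92751590-92794818, minus strand, GRCm38), was 61.3, 79.1, 88.0 and 122 CPM in the members of S1 to S4 and 10.6, 9.01, 13.498 and 21.6 CPM in the other fibrillar barcodes. The lowest member library lay above the highest of the others. Thbs4 was 6.30-fold higher (log2 2.66 ± 0.109 SE, adjusted p = 4.77e-06, edgeR quasi-likelihood with the library as a block). In S2, 78 of the 93 Thbs4 UMIs of the Pan-Cart-p21MOE members lay in 1 barcode, so the level there rests largely on it. Kera, the keratan sulphate proteoglycan keratocan (chr10:97606879-97613692, plus strand, GRCm38), was 2.74, 19.2, 13.0 and 86.5 CPM in the members and 0.393, 1.5015, 2.63 and 8.52 CPM in the others. It was higher in 4 of 4 libraries, although the groups overlapped because its level varied more between libraries than within them (log2 3.03 ± 0.224, adjusted p = 0.000188). Mkx did not pass. It was 26.2, 67.7, 37.3 and 105 CPM in the members and 18.2, 21.4, 19.5 and 14.6 CPM in the others, higher in 4 of 4 libraries without overlap (log2 1.54 ± 0.477, adjusted p = 0.221), and it passed in 1 of 16 alternatives, with barcodes thinned to 3000 UMIs (adjusted p = 0.0215). In the 39 Gdf5-positive fibrillar barcodes Mkx was as high, 64.1 ± 20.7 CPM against 58.3 ± 34.8 CPM in the members (SD, n = 4 libraries, without TMM scaling). Thbs4 and Kera were low there, at 5.5 ± 4.3 and 0.72 ± 1.45 CPM. Across all genes 241 of 14518 were higher in the members (1.66%) and 151 were lower (1.04%), 2.7% in either direction, with the 11 selection genes left out of these counts.

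Share of barcodes gave the same order. Thbs4 had a UMI in 30.3% of members (95% exact binomial interval 26.2 to 34.6%), in 10.3% of the other fibrillar barcodes and in 5.67% of the 1710 barcodes on the cartilage side. Kera had one in 15.3%, 3.12% and 2.05%, and Mkx in 38.9%, 15.8% and 14.4%. With every barcode thinned to 3000 UMIs the shares in members and in the other fibrillar barcodes were 15.1% and 4.37% for Thbs4, 6.13% and 0.694% for Kera, and 12.1% and 4.44% for Mkx. The median depth before thinning was 28627, 17349 and 19968.5 UMIs. At either depth most members showed no Kera UMI, and the intervals cover counting error only.

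**Figure D1:**
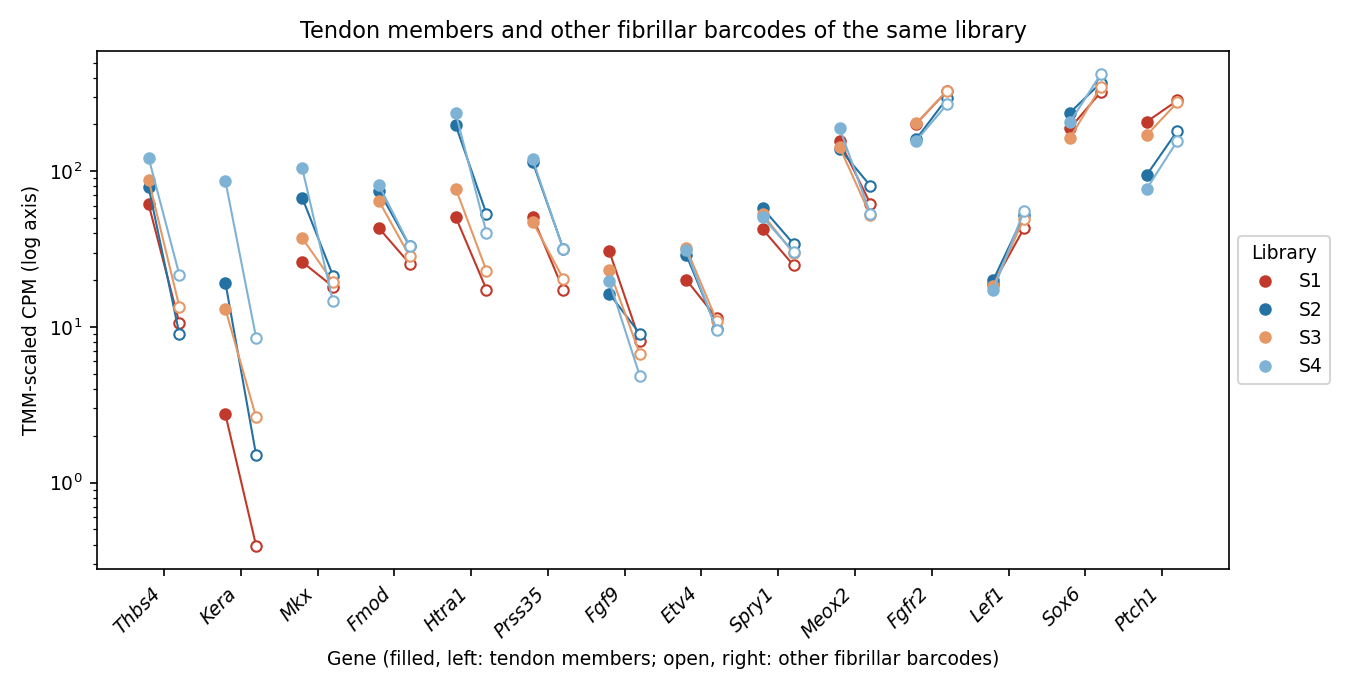
TMM-scaled CPM (log axis) of 14 genes in the tendon members (filled points, left) and the other fibrillar barcodes (open points, right), 1 line per library. Thbs4, Kera, Fmod, Htra1, Prss35, Fgf9, Etv4, Spry1 and Meox2 fall and Fgfr2, Lef1, Sox6 and Ptch1 rise from left to right in all 4 libraries, and Mkx falls steeply in S2 and S4 and less in S1 and S3.

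Thbs4, Kera and Fmod stand for the matrix genes that set the members apart. Their RefSeq promoters (GRCm38.p6, 250 bases before to 50 after the start, 5′ to 3′) are printed with the E-box, CANNTG, in capitals, the letters that basic helix-loop-helix factors bind. The motif is its own reverse complement, so 1 search covers both strands.
Thbs4, chr13:92794769-92795068, minus strand: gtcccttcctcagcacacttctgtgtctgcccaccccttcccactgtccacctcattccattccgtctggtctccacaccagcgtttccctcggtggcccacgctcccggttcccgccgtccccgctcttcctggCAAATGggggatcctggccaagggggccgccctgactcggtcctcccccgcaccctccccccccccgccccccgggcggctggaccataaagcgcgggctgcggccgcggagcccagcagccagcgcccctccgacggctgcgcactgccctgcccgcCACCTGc
Kera, chr10:97606955-97607254, plus strand: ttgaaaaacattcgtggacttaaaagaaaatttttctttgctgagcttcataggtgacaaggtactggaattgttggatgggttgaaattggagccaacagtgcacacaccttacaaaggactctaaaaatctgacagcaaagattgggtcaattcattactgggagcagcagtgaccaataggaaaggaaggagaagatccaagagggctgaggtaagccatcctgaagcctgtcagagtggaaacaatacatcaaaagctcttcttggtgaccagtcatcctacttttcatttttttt
Fmod, chr1:134037004-134037303, plus strand: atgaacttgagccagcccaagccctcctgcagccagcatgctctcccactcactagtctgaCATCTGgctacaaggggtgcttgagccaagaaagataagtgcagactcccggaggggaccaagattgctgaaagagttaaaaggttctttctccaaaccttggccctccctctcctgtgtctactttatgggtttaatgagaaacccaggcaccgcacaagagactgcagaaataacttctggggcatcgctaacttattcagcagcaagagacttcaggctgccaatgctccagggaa
Thbs4 held 2 E-boxes, Kera 0 and Fmod 1, where 72.3% of 32851 mouse promoters of this length held at least 1. The E-box of Fmod reads CAGATG on one strand, a form held by 17.2% of promoters. These counts describe the letters only. The Kera window lies inside the gene span given above, so it holds no bases before that span.

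Tendon matrix genes were called in 1 direction only, although most did not pass. Of 32 tendon matrix genes tested, 10 were higher, 0 lower and 22 did not pass, with a median log2 difference of 0.29 against -0.01 over all genes. Besides Thbs4 and Kera these were Fmod, Bgn, Dcn, Htra3, Tnc, Lox, Col5a2 and Cilp. Fmod, which binds collagen fibrils, was 43.1, 74.8, 64.5 and 81.4 CPM in the members of S1 to S4 and 25.5, 33.0, 28.4 and 33.2 CPM in the others, without overlap (log2 1.12 ± 0.105, adjusted p = 0.000655). Bgn and Dcn, further proteoglycans of that family, were higher by log2 0.55 ± 0.0675 and 0.57 ± 0.0767, Lox, the collagen cross-linking enzyme, by 0.58 ± 0.0896. The elastic fibre gene Fbln5, chosen after its values were seen, was 104, 136, 112 and 157 CPM against 52.7, 57.8, 57.9 and 70.5 CPM, again without overlap (log2 1.08 ± 0.0755, adjusted p = 0.000171). Htra1, a secreted serine protease, was 50.8, 197, 77.5 and 236 CPM against 17.4, 53.3, 23.0 and 40.3 CPM, higher in 4 of 4 libraries by log2 1.99 ± 0.168 (adjusted p = 0.00318). Its relative Htra3 was 26.9, 40.6, 21.7 and 49.5 CPM against 10.5, 9.76, 9.73 and 10.5 CPM. The protease gene Prss35 was 51.1, 115, 47.5 and 119.9 CPM against 17.4, 31.9, 20.4 and 31.6 CPM. Amtn, which encodes the secreted enamel protein amelotin, was named by size among genes with at least 20 CPM. It was 0.747, 8.55, 5.03 and 70.05 CPM against 0.131, 0.751, 0.351 and 1.97 CPM (log2 4.63 ± 0.336). Only the members of S4 reached 20 CPM, so its place by size is no result. Only 43 of the 489 members had an Amtn UMI and S4 carried most of it. Zfp185 and Fat3, named by the same rule of size, were higher by log2 2.18 ± 0.227 and 1.52 ± 0.176, and Lurap1l by 1.63 ± 0.206. Fat3 did not pass without S2 or S3 (adjusted p up to 0.098 over the alternatives).

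Transcription factors of the tendon lineage gave no uniform picture. Of 11 tested, 2 were higher, among them Meox2, 1 was lower (Foxp2) and 8 did not pass. Meox2, a homeobox factor of limb mesoderm, was 156, 140, 143 and 190 CPM in the members of S1 to S4 and 62.0, 80.7, 52.2 and 53.3 CPM in the others, without overlap (log2 1.40 ± 0.148, adjusted p = 0.00663). Its relative Meox1 was 92.4, 100.5, 154 and 136 CPM against 52.1, 25.5, 36.8 and 39.0 CPM (log2 1.65 ± 0.24, adjusted p = 0.0449). Its call was lost in 6 of 16 alternatives, among them those without S2, S3 or S4 and without barcodes of endothelial markers (adjusted p up to 0.161). Foxp2 was 834, 813, 982 and 838 CPM against 1358, 1253, 1413 and 1138 CPM. Egr1, a factor linked to mechanical load and to dissociation, stood at 637 ± 140 CPM in the members and 638 ± 138 CPM in the others (SD, n = 4). Among limb position genes, Pitx1, which specifies the hindlimb, and Lmx1b, which marks dorsal mesenchyme, were higher by log2 0.43 ± 0.0604 and 0.54 ± 0.115, Meis1 was lower by 0.53 on that scale, and 15 of 18 did not pass.

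Of 18 FGF pathway genes tested, 6 were higher, 2 lower and 10 did not pass, with a median of 0.05. The ligand Fgf9 was 30.6, 16.4, 23.1 and 19.7 CPM in the members of S1 to S4 and 8.11, 9.01, 6.66 and 4.81 CPM in the others, without overlap (log2 1.76 ± 0.181, adjusted p = 0.00107). Etv4, an ETS factor that FGF signalling is known to induce, was 20.2, 29.2, 32.2 and 31.0 CPM against 11.4, 9.76, 10.96 and 9.61 CPM (log2 1.42 ± 0.163), and the feedback inhibitors Spry1, Spry2, Spry4 and Dusp6 were higher by log2 0.78 ± 0.086, 0.67 ± 0.0841, 0.61 ± 0.126 and 0.73 ± 0.0951. Fgf8, which was not in the list, was 3.99, 2.85, 9.83 and 9.75 CPM against 0.785, 1.13, 1.84 and 1.53 CPM (chosen after its values were seen). The receptor Fgfr2 was 203, 162, 203 and 158 CPM against 329, 295, 330 and 270 CPM (log2 -0.74 ± 0.0554, adjusted p = 0.000188), and the ligand Fgf7 was lower by 0.89 on the log2 scale.

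Wnt genes had no common direction, with 14 of 24 above 0 and a median of 0.04. Among them, Wif1, a secreted Wnt inhibitor, was higher (log2 1.12 ± 0.104), while Lef1, Sfrp1, Tcf7 and Wnt4 were lower and 19 did not pass. Lef1, a nuclear effector of the pathway, was 18.9, 19.9, 18.3 and 17.2 CPM in the members of S1 to S4 and 42.9, 52.2, 49.5 and 55.4 CPM in the others. The groups did not overlap (log2 -1.43 ± 0.112, adjusted p = 0.000236). Of 12 hedgehog genes 11 were below 0, with a median of -0.21, and only Ptch1, the receptor and a target of the pathway, passed. It was 208, 94.7, 171 and 77.1 CPM against 285, 182, 278 and 157 CPM (log2 -0.75 ± 0.0919, adjusted p = 0.00373). It was lower in the members within each library, and both classes were higher in the tdT+ libraries S1 and S3. Gli1 was 26.9, 11.4, 21.5 and 10.5 CPM against 23.9, 28.9, 28.3 and 16.4 CPM and did not pass (adjusted p = 0.297). In the BMP list Id3 was higher and Bmp6 lower with 16 of 18 not passing, and in the TGF-beta list Tgfbr3 was lower with 19 of 20 not passing.

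Genes of neighbouring skeletal types were mostly lower or did not pass. Of 12 cartilage markers, Sox6, Sox5 and Hapln1 were lower and 9 did not pass, with a median log2 difference of -0.51. Sox6, which acts with Sox9 in chondrocytes, was 189, 238, 163 and 207 CPM in the members of S1 to S4 and 322, 370, 348 and 420 CPM in the others (log2 -0.88 ± 0.0801). Of 8 osteoprogenitor markers only Ifitm5 passed, at 1.49, 2.85, 2.97 and 2.66 CPM against 10.6, 7.13, 41.8 and 10.5 CPM, and the selection had left out barcodes with Sp7. Among 9 interzone markers Htra1 was higher and Osr2 lower. Among 9 perichondrium markers Aspn and Igf1 were higher, and Pdgfra, at 135 ± 22.2 CPM in the members and 146 ± 5.94 CPM in the others, did not pass. In the muscle connective tissue list 8 of 9 did not pass and Osr2 was lower, and in the attachment list only Klf4 passed, lower. The genes named by the rule of size on the lower side further included Zeb2 (log2 -1.10 ± 0.112), Adamts12 (-1.03 ± 0.112), Mdga2 (-1.48 ± 0.152), Pdzrn4 (-1.23 ± 0.16) and the predicted genes Gm20754 and Gm49708. With all barcodes thinned to 3000 UMIs Pdzrn4 was at -0.36 (adjusted p = 0.567) and Gm49708 at -1.10 (adjusted p = 0.0536), and neither passed. Gm20754 did not pass without S3, nor did Mdga2 or Zeb2 without the barcodes of endothelial markers.

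Markers of other cell types were found in some of the members. At least 5 UMIs of the skeletal muscle list were found in 11 members, of the endothelial list in 56, of the immune list in 2, of the erythroid list in 4 and of the Schwann cell list in 5. Muscle markers summed to 85.1, 17.3, 139 and 31.1 CPM in the members of S1 to S4 and 12.1, 60.7, 67.7 and 518 CPM in the others, led by Actc1 in S1 and S3, with Myf6 at 0 UMIs in all 4 libraries of the members. Endothelial markers summed to 52.3, 84.5, 70.9 and 89.7 CPM against 54.0, 41.1, 88.7 and 168 CPM, led by Pecam1, and Cdh5 was at 0 in S1 to S3 of the members. Immune markers summed to 0.981, 119, 3.99 and 3.65 CPM, erythroid markers to 2.45, 26.7, 3.32 and 23.8 CPM and Schwann cell markers to 8.10, 50.6, 9.97 and 15.6 CPM in the members. At least 5 UMIs of the pericyte list were found in 10 of 58, 2 of 19, 14 of 72 and 27 of 108 Pan-Cart-p21MOE members of S1 to S4. In control members they were found in 11 of 33, 5 of 21, 10 of 58 and 6 of 41. Pericyte markers summed to 82.9, 83.1, 84.0 and 118 CPM in the members and 126, 104, 118 and 128 CPM in the others. No gene of the muscle, endothelial, immune, erythroid or Schwann lists passed between members and the others, whereas Cspg4 of the pericyte list was lower. Without the barcodes of at least 5 UMIs of the muscle, immune, erythroid or Schwann lists 408 genes passed, and without those of the endothelial list 621 passed. Under the same 2 exclusions 1 and 1 genes passed by genotype (2 with all members), 138 and 99 by tdT fraction (140) and 95 and 79 between the Tnmd ranges (44), and without barcodes of mixed sex 352 passed between members and the others and 55 between the Tnmd ranges.

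Among cell-cycle genes, calls between members and the others were mainly of S-phase genes. Of 41 S-phase genes, 6 were higher, 0 lower and 35 did not pass, where 1.66% of all genes were higher. Of the 41, 37 were above 0, with a median log2 difference of 0.28. Of 58 histone genes (named Hist in the files) none passed, with 33 above and 25 below 0 and a median of 0.07. Rrm2 was 71.5, 98.3, 71.3 and 113 CPM in the members and 43.3, 67.2, 61.4 and 62.5 CPM in the others (log2 0.60 ± 0.105), and Tyms 119, 125, 110 and 120 CPM against 76.8, 98.4, 89.0 and 95.9 CPM. Of 52 G2M genes none passed, and the median was 0.04. Ccnd1 was lower by 0.25 on the log2 scale. Endogenous Cdkn1a was 9.96, 9.97, 5.03 and 7.09 CPM in the members and 12.3, 18.8, 14.6 and 30.3 CPM in the others, lower in 4 of 4 libraries (log2 -1.27 ± 0.295, adjusted p = 0.0753). It did not pass here but did in 6 of 16 alternatives (adjusted p from 0.00411 to 0.32). In the dissociation stress list 24 of 26 genes did not pass and the median was 0.00, and among 16 p53 targets none passed. The number of genes that passed fell to 228 without S1, 119 without S3 and 201 without S4, and to 68 with no block for the library, where Kera, Amtn, Htra1, Prss35, Lurap1l, Mdga2, Pdzrn4, Gm20754 and Zeb2 were among those that did not pass.

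The members were not uniform in Tnmd. Those with at least 3 Tnmd UMIs (229 members, 45, 20, 67 and 97 in S1 to S4) were compared with those without any (162 members, 45, 22, 49 and 46), summed per library with the library as a block. These are ranges of 1 graded gene, and the 98 members with 1 or 2 Tnmd UMIs lie between them. Tnmd also helped choose the members. By that rule every Tnmd-zero member held at least 3 Scx UMIs, while the 43 members without Scx all fell in the Tnmd-high range. The differences below therefore describe the 2 ranges as selected and are no independent test of Tnmd. With Scx and Tnmd left out, 32 of 11688 genes were higher in the Tnmd-high range (0.274%) and 12 were lower (0.103%), 0.376% together. Of the other selection genes 7 were tested, and 1 of them, Col3a1, was among the 32, which is no result since it helped choose the members. Kera was 4.33, 44.8, 18.5 and 138 CPM in the Tnmd-high members and 2.20, 4.23, 0.605 and 19.1 CPM in the Tnmd-zero members of the same libraries (log2 2.91 ± 0.331, adjusted p = 0.00156). Within each library the Tnmd-high members were the higher, while S4 without Tnmd exceeded S3 with it. Thbs4 was 84.1, 203, 151 and 163 CPM against 14.9, 7.05, 35.1 and 44.9 CPM, without overlap, and did not pass (log2 2.44 ± 0.383, adjusted p = 0.121), although it passed in 8 of 12 alternatives (adjusted p from 2.29e-15 to 0.408). As above, 78 of its 93 UMIs in the Pan-Cart-p21MOE members of S2 lay in 1 barcode. Mkx was 43.3, 107, 36.4 and 144 CPM against 14.3, 45.1, 33.9 and 57.8 CPM and did not pass either (adjusted p = 0.0802), although it passed in 3 of 12 alternatives (adjusted p from 4.86e-07 to 0.854).

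Of 29 tendon matrix genes tested 2, Kera and Htra3, were higher in the Tnmd-high range and 27 did not pass. Htra3 was 48.2, 68.2, 37.5 and 73.1 CPM in the Tnmd-high members of S1 to S4 and 10.5, 28.2, 4.23 and 13.54 CPM in the Tnmd-zero members (log2 2.22 ± 0.245, adjusted p = 0.00108). C1qtnf3, a secreted protein of the complement C1q family, was 74.8, 40.9, 49.4 and 37.8 CPM against 6.06, 4.23, 16.9 and 6.77 CPM (log2 2.53 ± 0.315). Neither gene overlapped between the ranges. For C1qtnf3 this rests partly on single barcodes. Of its 122 UMIs in the Pan-Cart-p21MOE members of S1, 105 lay in 1 barcode, as did 18 of 23 in those of S2. Dgkb, a diacylglycerol kinase, was 121, 56.5, 57.0 and 142 CPM against 24.2, 4.23, 13.3 and 27.1 CPM (log2 2.39 ± 0.188, adjusted p = 5.11e-05), and the membrane protein gene Chodl 81.6, 81.9, 76.6 and 60.7 CPM against 15.97, 15.5, 23.6 and 19.7 CPM. For Dgkb too, 130 of 178 UMIs in the Pan-Cart-p21MOE members of S1 and 21 of 26 in those of S2 lay in 1 barcode each. Amtn, Zfp185 and Cdh18 were named by the same rule, at log2 5.17 ± 0.418, 2.12 ± 0.277 and 1.78 ± 0.212, and Htra1 and, chosen after their values were seen, Ogn and Inhba also passed. Amtn was at 0 CPM in the Tnmd-zero members of S1 to S3, so its log2 value is no measure of size. Zfp185 did not pass without S3, Cdh18 without the barcodes of endothelial markers (adjusted p = 0.196) or Chodl after thinning to 3000 UMIs (adjusted p = 0.138). For Cdh18, 66 of 86 UMIs in the Pan-Cart-p21MOE members of S1 and 24 of 31 in the control members of S2 lay in 1 barcode each.

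Of 9 interzone markers, Erg and Sfrp2 were lower and Htra1 higher in the Tnmd-high range, and 6 did not pass. Erg, an ETS factor of the joint interzone, was 16.7, 25.3, 14.7 and 42.4 CPM in the Tnmd-high members and 90.3, 45.1, 61.1 and 85.5 CPM in the Tnmd-zero members, without overlap (log2 -1.61 ± 0.252, adjusted p = 0.03). The Wnt modulator Sfrp2 was 124, 203, 139 and 341 CPM against 215, 511, 221 and 434 CPM (log2 -0.76 ± 0.138, adjusted p = 0.0364). Sema3e, an axon and vessel guidance ligand, was 9.89, 19.5, 6.52 and 18.0 CPM against 24.2, 71.9, 26.6 and 52.3 CPM. Nefl, Nkain2, Megf10 and Pknox2 were also lower, but each lost its call in several alternatives. Nkain2 and Megf10 passed in 1 of 4 fits with a library left out (without S2), Nefl in 2 (without S1 or S2) and Pknox2 in 2 (without S2 or S4). Erg did not pass without S1 or S3. Megf10 was at log2 -0.60 (adjusted p = 0.757) without the barcodes of muscle, immune, erythroid or Schwann markers. Tnnt1, the slow muscle troponin T, was lower at log2 -2.29 ± 0.293, but at 0.21 (adjusted p = 0.945) without the barcodes of muscle, immune, erythroid or Schwann markers. Of 52 G2M genes 47 were below 0 in the Tnmd-high range, although only Cenpf passed, lower, and the median was -0.21. Of 41 S-phase genes none passed and the median was 0.15. Without a block for the library only 3 genes passed, and 24 without S1, 71 without S2 and 17 without S3.

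**Figure D2:**
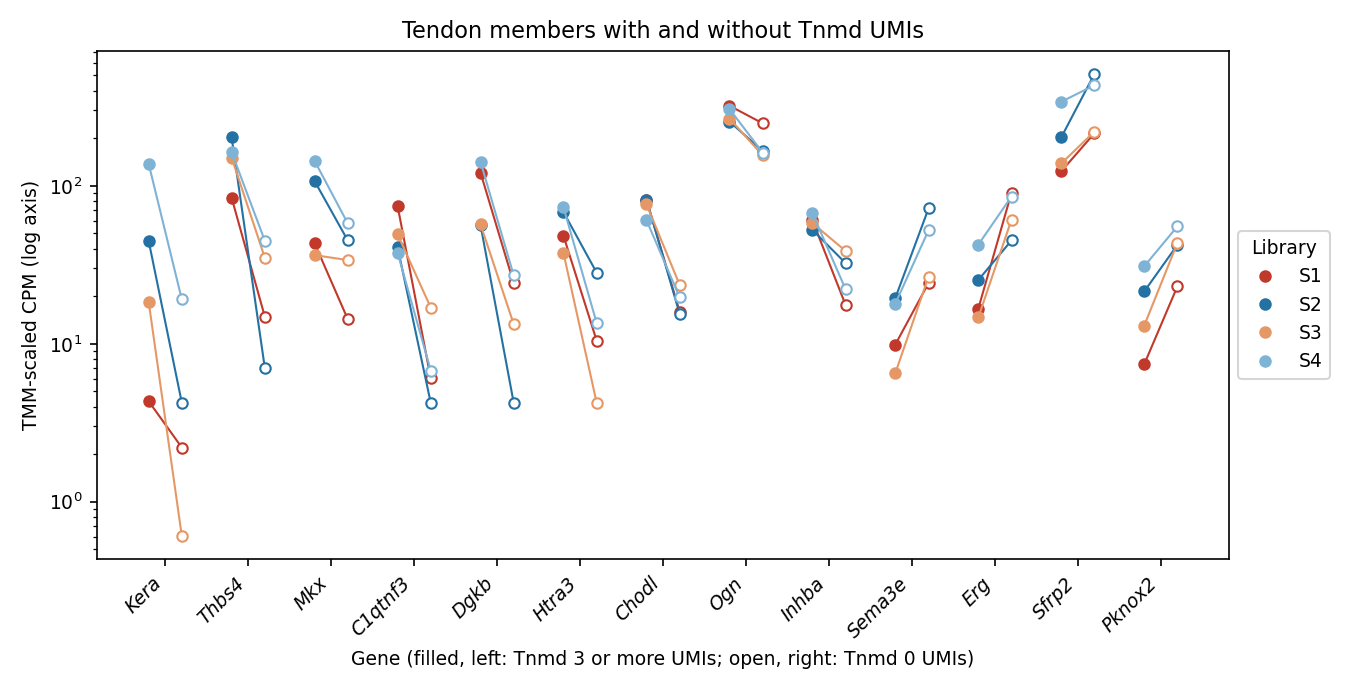
TMM-scaled CPM (log axis) of 13 genes in members with at least 3 Tnmd UMIs (filled points, left) and with 0 Tnmd UMIs (open points, right), 1 line per library. Kera, Thbs4, C1qtnf3, Dgkb, Htra3, Chodl, Ogn and Inhba are higher and Sema3e, Erg, Sfrp2 and Pknox2 lower in the Tnmd-high members of each library, and Mkx differs little in S3 (36.4 against 33.9 CPM).

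Whether the tendon lineage changed in number was asked as the share of members among fibrillar barcodes with a genotype. It was 35.8% in Pan-Cart-p21MOE (58 of 162) and 22.1% in control (33 of 149) in S1, 32.2% (19 of 59) and 23.6% (21 of 89) in S2, 19.9% (72 of 362) and 29.6% (58 of 196) in S3, and 28.1% (108 of 385) and 39.4% (41 of 104) in S4. Pan-Cart-p21MOE was above control in both libraries of collection 1 and below it in both of collection 2. The means were 29.0% ± 6.84 and 28.7% ± 7.85 (SD, n = 4), a difference of 0.297 percentage points (two-sided exact permutation test over 70 assignments, p = 0.971). Within collections the differences were 13.7 and 8.61 percentage points in S1 and S2 and -9.70 and -11.4 in S3 and S4. Collection, embryo pool and the sex of each genotype changed together, and cannot be told apart here.

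By fraction the share was 26.9% ± 7.26 in tdT+ and 30.8% ± 6.73 in tdT- (two-sided exact permutation test, p = 0.457). The difference of -3.96 percentage points became -8.14 with all barcodes thinned to 3000 UMIs (exact permutation p = 0.0286, the smallest that 70 assignments can give). It was 2.82 when all barcodes past the filter formed the denominator. These assignments treat the tdT+ and tdT- samples of an embryo pool as independent. A share of barcodes also depends on dissociation, sorting and depth.

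**Figure D3:**
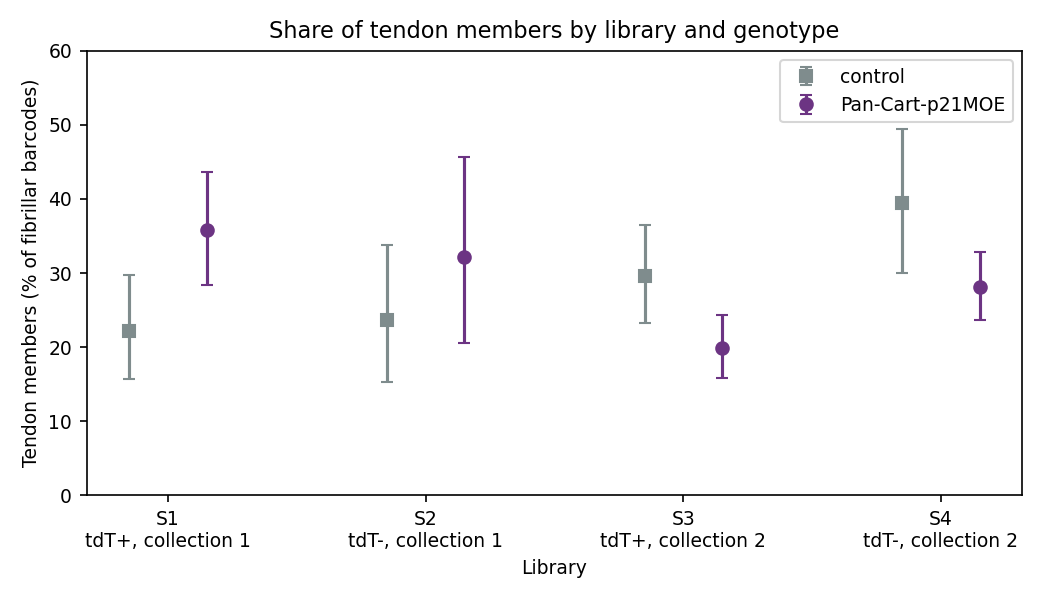
Share of tendon members among fibrillar barcodes with a genotype (%) in each library, for control (squares) and Pan-Cart-p21MOE (circles), with exact binomial 95% intervals. The share in Pan-Cart-p21MOE lies above control in S1 and S2 (collection 1) and below it in S3 and S4 (collection 2).

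The tdT+ and tdT- members differed in 140 genes. Counts were summed per library and genotype (8 samples of 19 to 108 members, 543725 to 3609412 UMIs) and fitted with genotype and fraction. Of 11004 genes, transgenes left out, 64 were higher in tdT+ (0.582%) and 76 lower (0.691%), 1.27% in total. Of the 11 selection genes, 9 were among those tested, and 1 of them, Col9a2, was among the 76, which is no result since it helped choose the members. The sort itself could be read in the files. tdTomato UMIs were present in 20 of 58 and 11 of 33 tdT+ members of S1 (Pan-Cart-p21MOE, then control) and in 16 of 72 and 10 of 58 of S3, against 1 of 19, 1 of 21, 2 of 108 and 2 of 41 tdT- members of S2 and S4. Most tdT+ members thus had no tdTomato UMI. Reads of this transgene map mainly to the WPRE sequence, which the p21 allele also carries.

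The label reports hedgehog activity. Of 11 hedgehog genes tested, 3 were higher, among them Ptch1 and Hhip, 0 were lower and 8 did not pass. Ptch1, the hedgehog receptor, was 243, 195, 182 and 161 CPM in tdT+ members (Pan-Cart-p21MOE and control of S1, then of S3) and 92.6, 105, 77.5 and 78.4 CPM in tdT- members (the same order in S2 and S4). The groups stood apart by log2 1.14 ± 0.159 (adjusted p = 0.0049). Hhip, a hedgehog-binding inhibitor, was 24.5, 20.7, 22.6 and 27.1 CPM against 7.12, 4.61, 5.23 and 8.33 CPM (log2 1.91 ± 0.263, adjusted p = 0.0049). Gli1 itself, whose locus drives the label, was 26.5, 25.3, 16.8 and 25.3 CPM against 3.56, 18.4, 11.6 and 10.4 CPM, higher in 4 of 4 pools with overlap, and did not pass (log2 1.02 ± 0.289, adjusted p = 0.14). It passed in 1 of 19 alternatives, without the filter on low counts (adjusted p = 0.00947). Gas1, a co-receptor that hedgehog signalling represses, was 150, 268, 320 and 240 CPM against 444, 421, 606 and 399 CPM and did not pass (adjusted p = 0.11).

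Some osteoblast genes were also higher in tdT+ members. Alpl, tissue-nonspecific alkaline phosphatase, was 69.1, 46.1, 47.4 and 66.6 CPM in tdT+ and 19.6, 15.4, 10.7 and 8.33 CPM in tdT- members, without overlap (log2 2.24 ± 0.264, adjusted p = 0.00392). Of 6 osteoprogenitor markers tested Alpl and Dlx5 were higher and 4 did not pass, with Runx2 at 624, 483, 203 and 394 CPM against 123, 118, 105 and 122 CPM (adjusted p = 0.0695). The transcription factor gene Maf was 211, 137, 94.4 and 137 CPM against 30.3, 33.8, 37.5 and 22.9 CPM (log2 2.19 ± 0.261), and Bnc2 636, 528, 432 and 531 CPM against 258, 220, 289 and 225 CPM (log2 1.07 ± 0.134). Rspo3 and Wnt5a, secreted Wnt pathway ligands, were higher by log2 1.69 ± 0.217 and 1.01 ± 0.19, the limb factor Tbx15 by 0.70 ± 0.122 and Prrx1 by 0.79 ± 0.15, the only one of 9 perichondrium markers that passed. Krt18, Fxyd7, S100a6 and Epha3 were named by lowest p, at log2 1.45 ± 0.195, 1.64 ± 0.222, 1.495 ± 0.21 and 0.94 ± 0.133. Actc1, cardiac actin, passed at log2 3.30 ± 0.441, but 118 of its 119 UMIs in the Pan-Cart-p21MOE members of S1 and 182 of 183 in those of S3 lay in 1 barcode each.

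Mkx was lower in the tdT+ members. It was 32.3, 22.3, 41.7 and 37.1 CPM in tdT+ and 74.8, 76.9, 109 and 99.2 CPM in tdT- members, so that every tdT- sample exceeded every tdT+ sample (log2 -1.48 ± 0.182, adjusted p = 0.00392). The other 4 tendon markers did not pass, all with values below 0, although with the embryo pool as a block Kera (adjusted p = 0.00817) and Tnmd (adjusted p = 0.0124) passed, as did Tnmd with DESeq2. Kera was 4.41, 1.54, 8.42 and 22.4 CPM against 24.9, 16.9, 105 and 68.0 CPM (log2 -2.70 ± 0.819, adjusted p = 0.279), and Tnmd 138, 71.4, 180 and 113 CPM against 187, 103, 394 and 302 CPM (log2 -1.05 ± 0.361, adjusted p = 0.317). Both were lower in 4 of 4 pools, with overlap between pools. Scx was 146, 124, 289.5 and 194 CPM against 312, 152, 235 and 390 CPM (adjusted p = 0.643), and Thbs4 36.3, 63.7, 119 and 61.9 CPM against 166, 15.4, 108 and 134 CPM (adjusted p = 0.822). Behind the 166 CPM of Thbs4, 78 of 93 UMIs lay in 1 barcode. Scx and Tnmd had chosen the members, so their levels are limited from below.

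Genes of other lists were lower in tdT+ members too. Htra1 was 59.3, 29.2, 90.4 and 74.2 CPM in tdT+ and 255, 191, 233 and 232 CPM in tdT- members (log2 -1.88 ± 0.249, adjusted p = 0.0104), and Prss35 50.5, 42.2, 56.3 and 42.4 CPM against 119, 134, 147 and 71.5 CPM (log2 -1.32 ± 0.185). Neither overlapped. The FGF ligand Fgf18 was 15.2, 23.0, 18.2 and 23.0 CPM against 35.6, 56.9, 41.5 and 43.0 CPM (log2 -1.19 ± 0.183), and Spry2, an inhibitor that FGF signalling induces, was also lower, with 16 of 18 FGF genes not passing. Sfrp2 was 158, 187, 220 and 152 CPM against 367, 357, 445 and 325 CPM (log2 -1.09 ± 0.134), and Tnfaip6, a hyaluronan-binding secreted protein, fell by 1.32 on the log2 scale. The cartilage list had no member above 0 among 11 tested, with Hapln1 and Comp lower and a median of -0.71. Of 29 tendon matrix genes Ptgis, Htra3 and Comp were lower and 26 did not pass. Syt7, Trpm3, Xkr4, Mtss1 and Gadd45b were named by lowest p on the lower side, at log2 -2.54 ± 0.356, -1.56 ± 0.228, -1.88 ± 0.276, -1.47 ± 0.219 and -1.16 ± 0.174.

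Some genes of other lists differed with the fraction, although not every list moved as a whole. Pecam1 was 25.0, 16.9, 24.8 and 20.6 CPM in tdT+ and 55.2, 78.4, 46.7 and 44.4 CPM in tdT- members. The endothelial list summed to 67.5, 37.1, 66.6 and 78.0 CPM against 92.0, 97.8, 77.9 and 71.0 CPM, higher in tdT+ for the control members of collection 2. Of 4 endothelial markers tested 2 were above and 2 below 0, and only Pecam1 passed. Hbb-y, an embryonic haemoglobin, had no UMI in the 4 tdT+ samples and was 10.7, 12.3, 7.84 and 5.55 CPM in the tdT- samples, and the erythroid list summed to 2.96, 3.16, 2.10 and 2.96 CPM against 22.1, 26.4, 19.7 and 23.4 CPM. Of 26 dissociation stress genes Fos, Socs3 and Junb were lower in tdT+ members, 24 were below 0 and the median was -0.53. Cell-cycle genes also leaned down, 36 of 41 S-phase genes and 42 of 50 G2M genes and 30 of 36 histone genes, with no call in any of these lists. Their part in the result was not tested. Without the barcodes of endothelial markers Xkr4 did not pass (adjusted p = 0.524), and Bnc2, Epha3, Trpm3 and Xkr4 did not pass with membership at 5 UMIs of Scx and Tnmd, nor S100a6 and Xkr4 at 2 UMIs. The count of genes that passed was 69 and 90 without the Pan-Cart-p21MOE and control cells of S1, 79 without the control cells of S3, 74 without those of S4, and 55 when membership needed 5 UMIs of Scx and Tnmd. With the embryo pool as a block it was 198.

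Between classes, only the difference in Myl1, a muscle gene, differed from that in the other fibrillar barcodes (1 of 12706 genes, 0.00787%, adjusted p = 0.00382 for the interaction). It rests on few barcodes, since Myl1 had 0 UMIs in 6 of the 8 samples of members and 38 of its 39 UMIs in the Pan-Cart-p21MOE members of S3 lay in 1 barcode. For Mkx the interaction was log2 -1.67 ± 0.329 (adjusted p = 0.238), for Alpl 1.30 ± 0.218 (adjusted p = 0.0957), for Fgf18 -1.38 ± 0.214 (adjusted p = 0.0624) and for Ptch1 0.50 ± 0.198 (adjusted p = 0.916). The fraction differences of these genes are therefore not shown to be particular to the tendon members.

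**Figure D4:**
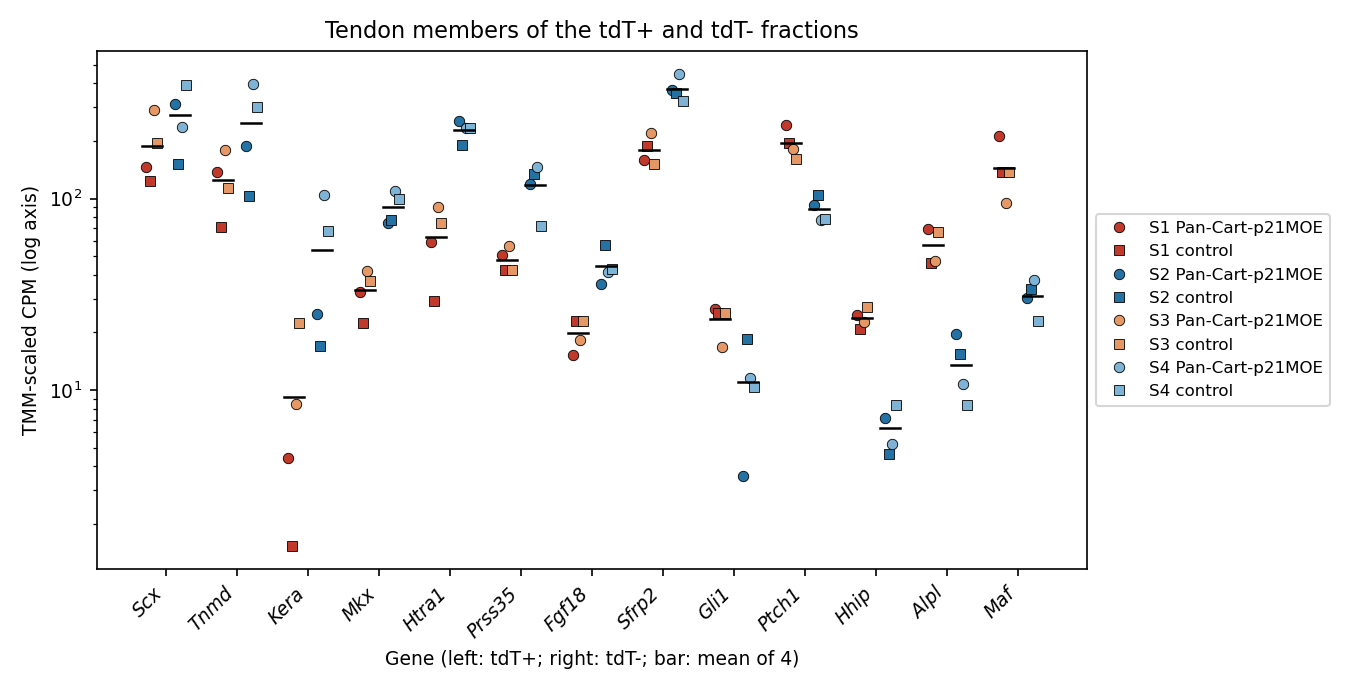
TMM-scaled CPM (log axis) of 13 genes in the 4 tdT+ samples (left of each pair) and the 4 tdT- samples (right) of the tendon members, by library and genotype, with the mean of 4 as a bar. The samples do not overlap for Mkx, Htra1, Prss35, Fgf18 and Sfrp2, all lower in tdT+, nor for Ptch1, Hhip, Alpl and Maf, all higher, and they overlap for Scx, Tnmd, Kera and Gli1.

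By genotype, 2 of 11006 genes differed between Pan-Cart-p21MOE and control members (0.0182%), both higher in Pan-Cart-p21MOE, and 0 were lower (0%). The 9 selection genes tested here gave no call. At an unadjusted p under 0.05, 176 genes were higher and 144 lower, and DESeq2 called 3. Dcc, the netrin receptor, was 219, 374, 286 and 263 CPM in Pan-Cart-p21MOE members of S1 to S4 and 91.4, 99.9, 84.8 and 128 CPM in control members, without overlap (log2 1.47 ± 0.152, adjusted p = 0.0011). It was detected in 26 of 58, 9 of 19, 40 of 72 and 48 of 108 Pan-Cart-p21MOE members and in 14 of 33, 8 of 21, 21 of 58 and 17 of 41 control members. The top barcode of each Pan-Cart-p21MOE sample held 205 of 447, 89 of 210, 203 of 644 and 126 of 907 Dcc UMIs. That of each control sample held 30 of 119, 28 of 65, 29 of 144 and 43 of 184, both from S1 to S4. The level of Dcc in Pan-Cart-p21MOE members thus rests in part on single barcodes. The Dcc difference did not pass without the barcodes of endothelial markers or with membership at 5 UMIs of Scx and Tnmd (adjusted p = 0.148 and 0.161, edgeR). Actc1 was 58.3, 1.78, 81.1 and 6.97 CPM against 0.768, 1.54, 0.589 and 0.694 CPM (log2 5.54 ± 0.542), and as above nearly all of it lay in 1 barcode in each of S1 and S3. Muscle markers summed to 159, 27.6, 252 and 26.9 CPM in Pan-Cart-p21MOE and to 7.11, 6.21, 14.2 and 41.9 CPM in control members of S1 to S4. Without the barcodes of muscle, immune, erythroid or Schwann markers 1 gene passed. By lowest p without passing, Nefl was higher (adjusted p = 0.268) and Hfm1, Ccser1 and Nexmif lower (adjusted p = 0.369, 0.369 and 0.511). All 4 passed without the filter on low counts, Ccser1 also with DESeq2 and Nefl also without the Pan-Cart-p21MOE cells of S2.

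No tendon marker passed by genotype. Tnmd was 138, 187, 180 and 394 CPM in Pan-Cart-p21MOE and 71.4, 103, 113 and 302 CPM in control members of S1 to S4, higher in 4 of 4 libraries with overlap between them (log2 0.63 ± 0.36, unadjusted p = 0.125, adjusted p = 1, edgeR). Blocking on library lowered that to an adjusted p of 0.369, still not past the threshold, and Tnmd is a gene by which the members were chosen. The share of members with at least 3 Tnmd UMIs was 36.2%, 42.1%, 51.4% and 58.3% in Pan-Cart-p21MOE and 30.3%, 38.1%, 41.4% and 48.8% in control. Scx, Mkx, Kera and Thbs4 had log2 differences of 0.20 ± 0.355, 0.17 ± 0.181, 0.09 ± 0.806 and 0.49 ± 0.619. An SE of that size leaves room for sizeable changes in Kera and Thbs4, and a p that misses the threshold does not show that they were equal.

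Cell-cycle and signalling genes gave no call either. Endogenous Cdkn1a, which encodes p21, was 14.2, 8.91, 6.65 and 4.65 CPM in Pan-Cart-p21MOE and 2.30, 4.61, 2.36 and 11.8 CPM in control members (adjusted p = 1). It says little on the transgene, whose reads map mostly to WPRE, and WPRE was 467, 57.0, 519 and 148 CPM against 385, 78.4, 430 and 47.9 CPM (log2 0.50 ± 0.265, adjusted p = 1). In Pan-Cart-p21MOE members, 20 of 29 Cdkn1a UMIs of S1 and 200 of 511 WPRE UMIs of S4 lay in 1 barcode each. Ccn2, a matricellular gene that TGF-beta induces, was 23.0, 21.4, 11.1 and 18.9 CPM against 16.1, 26.1, 26.5 and 38.9 CPM (log2 -0.58 ± 0.268, adjusted p = 1). Of 41 S-phase and 50 G2M genes none passed. Their medians were 0.06 and 0.17, and 40 of the 50 G2M genes were above 0 in Pan-Cart-p21MOE. Of 36 histone genes none passed either, and these ran the other way, 30 of them below 0 with a median of -0.22. Among the lists of matrix (29 genes), TGF-beta (18), FGF (18), BMP (18), Wnt (21) and hedgehog (11) genes none passed. The genotype difference did not differ between members and the other fibrillar barcodes for any of 12708 genes (0%, edgeR interaction, with 369 at an unadjusted p under 0.05), Dcc included (log2 1.29 ± 0.184, adjusted p = 0.144).

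**Figure D5:**
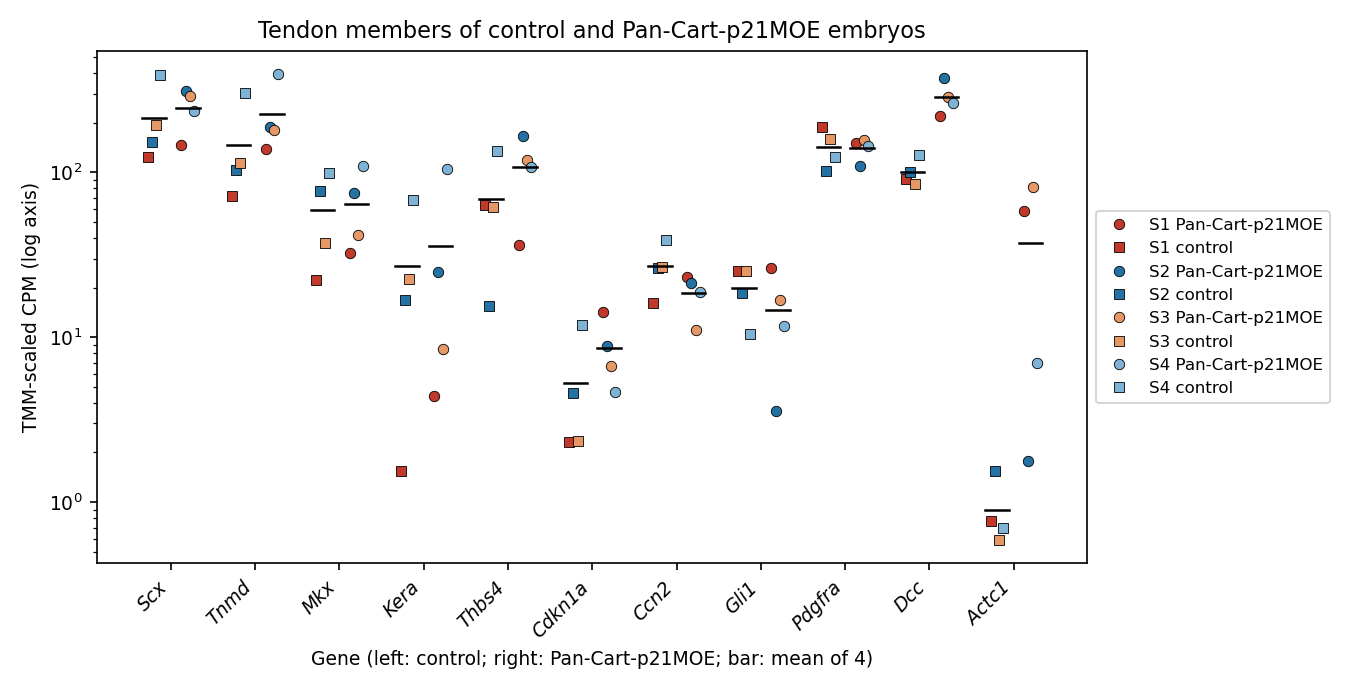
TMM-scaled CPM (log axis) of 11 genes in control (left of each pair) and Pan-Cart-p21MOE (right) tendon members of the 4 libraries, with the mean of 4 as a bar. The groups overlap for all 9 genes other than Dcc and Actc1, and the 2 high Actc1 values (58.3 and 81.1 CPM) are those of S1 and S3.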

How the data were processed

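The authors aligned the 10x Genomics 3′ libraries with Cell Ranger 7.2.0 to GRCm38 with tdTomato, CreERT2 and WPRE added, and deposited matrices of raw UMI counts per gene and barcode. The authors' later removal of ambient RNA and of doublets was not repeated here, except that barcodes of mixed sex received no genotype. A genotype needed 2 UMIs of Xist and 4 Y-linked genes, with 80% on one side. The members, gene lists and rule for named genes (size or lowest p among genes that passed, plus the tendon markers) were chosen with earlier results of these data known. A few genes that the rule names are not reported here.

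Counts were summed per library and class, or per library and genotype, and fitted with edgeR 4.0.16 (quasi-likelihood, TMM, low-count filter, Benjamini-Hochberg threshold 0.05) in R 4.3.3, tested on simulated data. The library was a block in the comparisons of classes and of Tnmd ranges, whose sums came from the same library. Deviations of the genotypes of a library correlated at 0.230, 0.0880, 0.0587 and 0.109, and those of the fractions of a pool at 0.0623, 0.0708, 0.0622 and 0.110, so neither was a block. The tests treat tdT+ and tdT- cells of 1 pool as independent, although they share embryos. DESeq2 1.42.0 and limma 3.58.1 were alternatives.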

Additional observations from a re-analysis of the deposited data

Results flagged for a closer look

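In 194 groups of 4 samples tested for 1 sample far from the rest, 5 stood apart, where chance marks about 1 in 20. In the members, Amtn was 70.05 CPM in S4 and 0.7473, 8.549 and 5.029 CPM in S1 to S3. Among the tdT+ samples, Gli1 was 16.85 CPM in the Pan-Cart-p21MOE members of S3 and 25.34, 26.46 and 25.34 CPM in the others. In Tnmd-zero members Amtn was 3.692 CPM in S4 and 0 in the other libraries. In Tnmd-high members of S2, Cdh18 was 15.59 CPM (54.4, 55.42 and 61.92 CPM in S1, S3 and S4) and Pdgfra 68.22 CPM (141, 131.5 and 129.7 CPM).

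The share of members among fibrillar barcodes moved in opposite directions in the 2 collections, with Pan-Cart-p21MOE minus control at a mean of 11.13 percentage points in collection 1 (S1 and S2) and -10.54 in collection 2 (S3 and S4). This difference was not tested, and collection, embryo pool and sex cannot be told apart.

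For Myl1, the difference between fractions itself differed between members and the other fibrillar barcodes (log2 10.8, adjusted p = 0.00382, edgeR interaction). Myl1 had 0 UMIs in 6 of the 8 samples of members, and 38 of its 39 UMIs in the Pan-Cart-p21MOE members of S3 lay in 1 barcode, so the log2 value is no measure of size.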

How the results depend on the processing

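Embryos were few, genotype was read from sex, and samples of 19 to 108 members limit what can be detected. With no replicate block, 68 genes passed between members and the other fibrillar barcodes and 3 between Tnmd ranges. As alternative blocks, the library left 2 genes by genotype and the embryo pool gave 198 by fraction. Without the filter on low counts 868 (classes), 49 (genotype), 570 (fraction), 296 (Tnmd ranges), 68 (interaction with genotype) and 197 genes (interaction with fraction) passed. limma voom gave 684 between classes, 1 by genotype and 86 between Tnmd ranges, and DESeq2 237 by fraction. By genotype 1 gene passed with membership at 5 UMIs of Scx and Tnmd, neither Dcc nor Actc1, and 1 of those 2 passed alone with membership at 2 UMIs, with sex called from 5 UMIs, and without barcodes of muscle, immune, erythroid or Schwann markers or of endothelial markers. By fraction 55 passed at 5 UMIs of Scx and Tnmd. Between Tnmd ranges 25 passed after thinning, 95 without barcodes of muscle, immune, erythroid or Schwann markers and 79 without those of endothelial markers, where the classes gave 621. Leaving out 1 library or sample gave 119 to 542 genes between classes, 1 to 3 by genotype, 69 to 186 by fraction and 17 to 71 between Tnmd ranges. The genotype difference in the share of members was -0.6788 percentage points at 2 UMIs of Scx and Tnmd, -1.116 after thinning and -1.975 to 3.875 with 1 sample left out, and the fraction difference was 2.818 with all barcodes past the filter as denominator and -8.141 after thinning. The causes were not tested.

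Values of single genes that changed sign, on the log2 scale, did not pass in either fit except Tnnt1. Between classes WPRE was -0.145 thinned, -0.113 at a lower minimum of UMIs per barcode, -0.0213 without barcodes of muscle, immune, erythroid or Schwann markers, -0.081 without those of endothelial markers and -0.0112 to 0.0747 with 1 library left out. By genotype Kera was -0.152 with DESeq2, -0.0598 without endothelial-marker barcodes and -0.918 to 0.777 with 1 sample left out, Pdgfra -0.144 to 0.0645 and Scx -0.0729 to 0.555 with 1 left out, and Cdkn1a -0.175 at 2 UMIs. By fraction Cdkn1a was 0.241 with limma voom and -1 to 0.440 with 1 left out. Between Tnmd ranges, with 1 library left out, Gli1 was -0.220 to 0.260, tdTomato -0.606 to 0.364 and Ccn2 -0.130 to 0.290. Without barcodes of muscle, immune, erythroid or Schwann markers Gli1 was -0.0438, Ccn2 -0.0113 and Tnnt1 0.213. Ccn2 was -0.0261 without sex-mixed barcodes, and WPRE -0.119 thinned.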
